A study of Mus musculus with 8 samples.

Results

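The 8 genes described here, *Ppp1r1b*, *Rgs9*, *Adora2a*, *Drd1*, *Drd2*, *Pde10a*, *Six3* and *Isl1*, are known for their strong expression in the striatum, and they were read in RNA sequencing data of mouse cingulate cortex. They were chosen by name, with no threshold on their counts, and all 8 were found among the 53379 genes of the table. Of these 8 genes, 6 had enough reads to be tested together with 16914 genes in all, while *Six3* and *Isl1* did not. The samples came from the cingulate gyrus of male mice, 4 *Mvp*+/+ (WT) and 4 *Mvp*-/- (Mvp KO). *Mvp* encodes the major vault protein, the main component of the cytoplasmic ribonucleoprotein particles called vaults. The Mvp KO mice carried a gene-trap cassette with β-Geo in the first intron of *Mvp*, derived from a single embryonic stem cell clone, and both groups were on a C57BL/6 background. Anterior cingulate tissue was cut with a brain matrix and flash frozen, and the age of the mice used for sequencing is not given in the sources used here. The sample labels number the replicates of each genotype but do not tie them to animals, while the statistics section of the study calls its replicates biological. The p-values below measure the spread between these samples.

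The striatum lies below the cingulate cortex, separated from it by white matter, and is made up mostly of GABAergic projection neurons. These neurons form a direct pathway, whose cells carry the dopamine receptor Drd1 and the peptides encoded by *Tac1* and *Pdyn*, and an indirect pathway, whose cells carry the dopamine receptor Drd2, the adenosine receptor Adora2a and the peptide encoded by *Penk*. In both, dopamine and adenosine act through cyclic AMP, which is degraded by the phosphodiesterase Pde10a. Phosphorylation of Ppp1r1b (also called DARPP) by protein kinase A turns it into an inhibitor of protein phosphatase 1, and Rgs9 shortens G protein signals downstream of the receptors. Six3 and Isl1 are transcription factors that act as these neurons are specified, Isl1 in the direct and Six3 in the indirect pathway. Several of the receptor and signalling genes are also expressed at lower levels by neurons of the cortex.

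The windows before the transcription start of *Rgs9*, *Drd1* and *Drd2* are shown because these 3 genes had their lowest level of each genotype in the same replicate number, as described below. They were taken from RefSeq (GRCm38.p6), which gave windows for 6 of the 8 genes, and run 5′ to 3′ on the strand of the gene. Capitals mark each GC box (GGGCGG or CCGCCC) and each TATA box (TATAAA or TTTATA). The windows are chr11:109298182-109298431 on the minus strand for *Rgs9*, chr13:54055706-54055908 on the minus strand for *Drd1*, and chr9:49340153-49340402 on the plus strand for *Drd2*.
Rgs9: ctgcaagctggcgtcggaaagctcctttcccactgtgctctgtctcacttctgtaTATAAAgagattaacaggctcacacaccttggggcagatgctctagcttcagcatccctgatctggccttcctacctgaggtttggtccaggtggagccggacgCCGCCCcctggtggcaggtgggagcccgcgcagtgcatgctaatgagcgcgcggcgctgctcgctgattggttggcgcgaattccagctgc
Drd1: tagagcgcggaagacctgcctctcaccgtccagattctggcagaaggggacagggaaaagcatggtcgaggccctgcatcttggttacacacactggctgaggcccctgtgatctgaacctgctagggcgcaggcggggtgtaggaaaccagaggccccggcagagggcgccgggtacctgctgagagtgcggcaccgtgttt
Drd2: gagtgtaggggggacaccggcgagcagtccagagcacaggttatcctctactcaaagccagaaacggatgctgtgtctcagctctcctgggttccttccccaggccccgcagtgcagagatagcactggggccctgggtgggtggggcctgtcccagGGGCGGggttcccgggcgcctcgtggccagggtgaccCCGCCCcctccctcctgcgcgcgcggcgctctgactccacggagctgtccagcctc
The *Drd1* window leaves off the last 47 bases of the RefSeq window, which lie inside the gene as annotated by GENCODE. The *Rgs9* window held 1 GC box and 1 TATA box, the *Drd2* window held 2 GC boxes, and the *Drd1* window held neither motif. The core of the cyclic AMP response element (TGACG or CGTCA) was in none of these 3 windows. Of 32851 mouse promoters, each read over 250 bases, 32.7% held a GC box, 12.4% a TATA box and 17.8% such a core on either strand. The G and C content was 59.6% for *Rgs9*, 62.6% for *Drd1* and 68.8% for *Drd2*, against a median of 52.4% over all promoters. A second RefSeq start of *Drd1*, inside the gene, has a window at chr13:54054781-54055030 that held 1 GC box. With that window a GC box was found for each of the 3 genes, and the other motifs were not. The share of 32.7% is per single window, while *Drd1* was read over 2. A GC box was not particular to these 3 genes. *Pde10a*, which did not share their replicate pattern, had a window at chr17:8801495-8801744 that also held 1.

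Depth was between 28456504 and 42854368 counts per sample. *Mvp*, the targeted gene, was at 6.82 ± 0.9999 CPM (a gene's counts scaled to a common library total by TMM; SD, n = 4) in WT and at 1.63 ± 0.333 CPM (n = 4) in Mvp KO, with no overlap (log2 fold change -2.06, adjusted p = 0.0162, edgeR). The markers of cortical excitatory neurons were found in every sample, at widely differing levels. *Slc17a7*, the vesicular glutamate transporter of cortical neurons, was at 1334 to 2729 CPM. *Emx1*, the lowest of these markers in the mean, was at 8.66 to 22.4 CPM. The leading principal component of log2 CPM held 46.0% of the variance, and on it WT replicate 4 lay at 71.5 and the other samples between -20.4 and -2.78. The genotype differences, levels and gene lists below are therefore given also without this sample.

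None of the 6 tested genes passed the test of Mvp KO against WT. By edgeR's quasi-likelihood test, 0 of 6 passed an adjusted p of 0.05, and 0.00591% of all genes tested did, a share that is *Mvp* alone. An unadjusted p under 0.05 was reached by 0 of 6, against 1.56% of all genes (0.698% higher and 0.863% lower in Mvp KO), and 0 of 6 had levels that did not overlap between the genotypes, against 1.51% of all genes. DESeq2's Wald test called 0 of 5 and gave no adjusted p for *Adora2a*. By sign, 5 were lower and 1 higher in Mvp KO, with a median log2 fold change of -0.11, but without WT replicate 4 all 6 were higher in Mvp KO. The median absolute log2 fold change was 0.23 for the 6 genes and 0.097 over all genes, and the median standard error was 0.31 against 0.14. In the same way, the median standard deviation of log2 CPM within a genotype was 0.52 for the 6 genes and 0.20 over all genes, so that both their differences and their spread were wide. Since these are bulk samples, fewer cells of a type and less RNA per cell cannot be told apart.

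Among the receptors, *Drd1* (chr13:54051183-54055705, minus strand, GRCm38) encodes the dopamine receptor that raises cyclic AMP. It was at 20.3, 10.3, 19.0 and 24.4 CPM in WT replicates 1 to 4 and at 17.5, 14.1, 19.1 and 19.4 CPM in Mvp KO replicates 1 to 4. All Mvp KO values lay inside the WT range, and both replicates numbered 2 were the lowest of their genotype. The log2 fold change was -0.08 (SE 0.23, 95% interval -0.60 to 0.44, adjusted p = 0.976 by edgeR), and without WT replicate 4 it was 0.09 (interval -0.43 to 0.61).

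*Drd2* (chr9:49340627-49408177, plus strand) encodes the dopamine receptor that lowers cyclic AMP and was the least abundant of the tested genes. It was at 2.00, 0.621, 1.35 and 1.52 CPM in WT and at 1.74, 1.05, 2.08 and 1.86 CPM in Mvp KO, from 27 to 79 counts per sample. Again the replicates numbered 2 were the lowest of each genotype, and WT replicate 4 was inside the range of the others. The log2 fold change was 0.30 (SE 0.35, interval -0.48 to 1.08, adjusted p = 0.969 by edgeR), and 0.36 (interval -0.49 to 1.21) without WT replicate 4.

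*Adora2a* (chr10:75316877-75334784, plus strand) encodes an adenosine receptor that, in the striatum, marks the indirect pathway and opposes Drd2. It was at 2.09, 1.96, 2.27 and 18.4 CPM in WT and at 1.79, 2.63, 1.92 and 2.46 CPM in Mvp KO, that is 579 counts in WT replicate 4 and 70 to 95 counts in every other sample. WT replicate 4 was thus 8.78 times the median of the other samples, which overlapped fully between the genotypes. The log2 fold change was -1.48 (SE 0.74, interval -3.15 to 0.18, unadjusted p = 0.0747, adjusted p = 0.969 by edgeR), and without this sample it was 0.06 (SE 0.19, interval -0.36 to 0.48). With this sample kept, the exact permutation test over the 70 arrangements gave a p of 0.686 for CPM (two-sided), and the smallest p it can give is 0.0286.

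**Figure D1:**
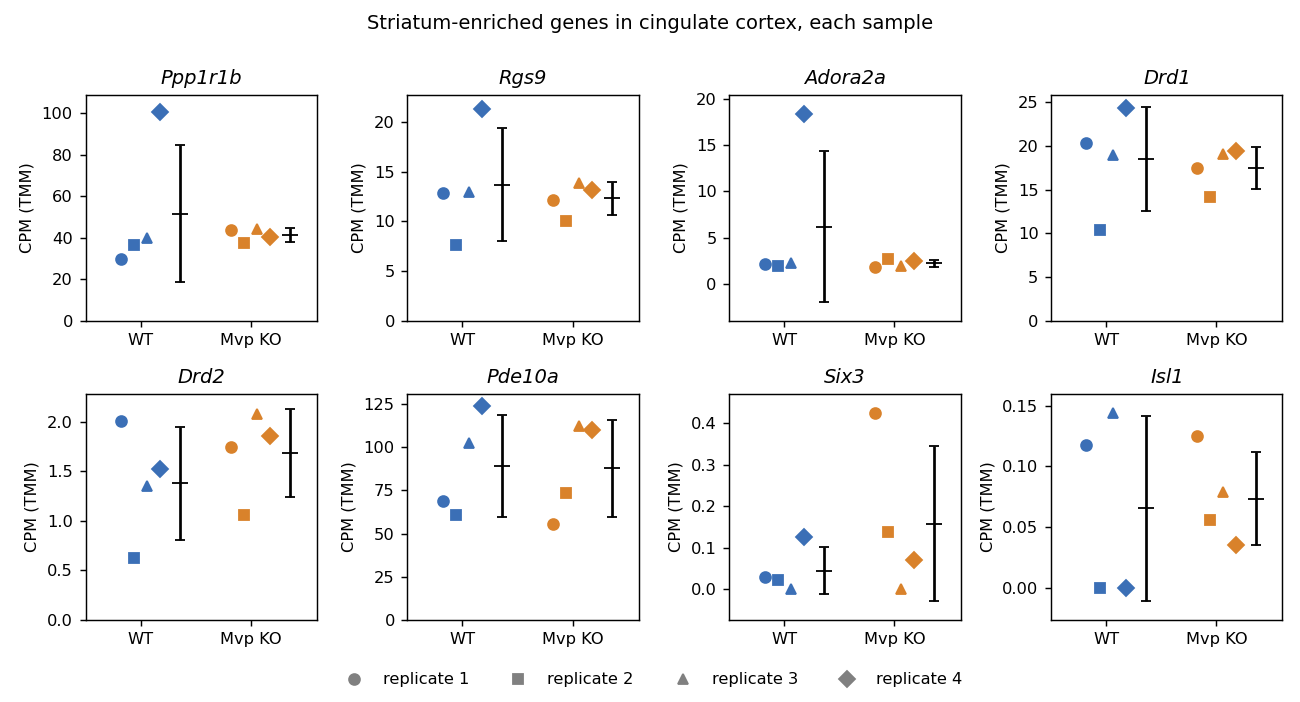
TMM-scaled CPM of each of the 8 genes (vertical axes, each from its own range) in WT (blue) and Mvp KO (orange), with a symbol for each replicate number and the mean ± SD of 4 samples in black. WT replicate 4 (blue diamond) stands at 18.4 CPM for *Adora2a* and 101 CPM for *Ppp1r1b*, above all other samples, while *Drd2* in this sample lies within the others.

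Of the signalling genes, *Ppp1r1b* (chr11:98348404-98357796, plus strand) was at 29.9, 36.4, 39.7 and 101 CPM in WT and at 43.6, 37.3, 44.3 and 40.3 CPM in Mvp KO. WT replicate 4 was 2.53 times the median of the others. Its log2 fold change was -0.32 (SE 0.34, interval -1.09 to 0.45, adjusted p = 0.969 by edgeR). Without that sample it turned to 0.23 (SE 0.10, unadjusted p = 0.0501, adjusted p = 0.9999 by edgeR). Then 3 of the 4 Mvp KO samples lay above all 3 remaining WT samples. Of the exonic bases of *Ppp1r1b*, 15.7% lie opposite *1700003D09Rik* on the other strand.

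*Rgs9* (chr11:109225355-109298129, minus strand) was at 12.8, 7.59, 13.0 and 21.4 CPM in WT and at 12.2, 10.1, 13.8 and 13.2 CPM in Mvp KO. As for *Drd1*, the Mvp KO values lay inside the WT range, with the replicates numbered 2 lowest and WT replicate 4 highest. The log2 fold change was -0.15 (SE 0.27, interval -0.75 to 0.45, adjusted p = 0.969 by edgeR), and it turned to 0.15 (interval -0.28 to 0.59) without WT replicate 4.

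*Pde10a* (chr17:8525372-8986648, plus strand) was at 68.8, 60.7, 102 and 124 CPM in WT and at 55.3, 73.8, 113 and 110.0 CPM in Mvp KO. In both genotypes replicates 3 and 4 were above replicates 1 and 2. The genotypes overlapped over most of their range, with a log2 fold change of -0.02 (SE 0.28, interval -0.65 to 0.61, adjusted p = 0.993 by edgeR) that turned to 0.19 (interval -0.50 to 0.87) without WT replicate 4.

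The transcription factors were near the limit of detection. *Six3* (chr17:85613608-85629302, plus strand) had 1, 1, 0 and 4 counts in WT and 17, 5, 0 and 2 counts in Mvp KO (exact permutation p = 0.314 for CPM, two-sided). A count of 0 allows up to 3 counts, or 0.0864 CPM in WT replicate 3 and 0.0789 CPM in Mvp KO replicate 3. The 17 counts fell in Mvp KO replicate 1. Summed markers of oligodendrocytes (5603 CPM) and of septal neurons (38.5 CPM) were also highest in that sample. So were the choroid plexus markers *Folr1* (0.523 CPM against 0 to 0.127 CPM elsewhere), *Otx2* (0.474 against 0.0230 to 0.0864 CPM) and *Clic6*. The choroid plexus markers *Ttr*, *Kl* and *Kcnj13* were not highest there. The part of these markers in the 17 counts was not tested. *Isl1* (chr13:116298281-116309689, minus strand) had 4, 0, 5 and 0 counts in WT and 5, 2, 3 and 1 counts in Mvp KO (exact permutation p = 0.914, two-sided). Its counts of 0 allow up to 0.0690 CPM in WT replicate 2 and 0.0952 CPM in WT replicate 4, the sample with the highest *Adora2a*. These floors cover counting error only.

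The intervals show which differences these samples could have missed. For *Rgs9*, *Drd1* and *Pde10a* the 95% interval lay within a 2-fold change in either direction, as it did for 86.7% of all genes, and for 0 of 6 it lay within 1.5-fold, against 64.5% of all genes. The interval of *Ppp1r1b* reached down to 0.471 times the WT level, that of *Adora2a* to 0.113 times, and that of *Drd2* up to 2.11 times. Without WT replicate 4 the interval lay within 2-fold for all but *Drd2* and within 1.5-fold for *Ppp1r1b* and *Adora2a*, against 88.7% and 71.4% of all genes in that fit.

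**Figure D2:**
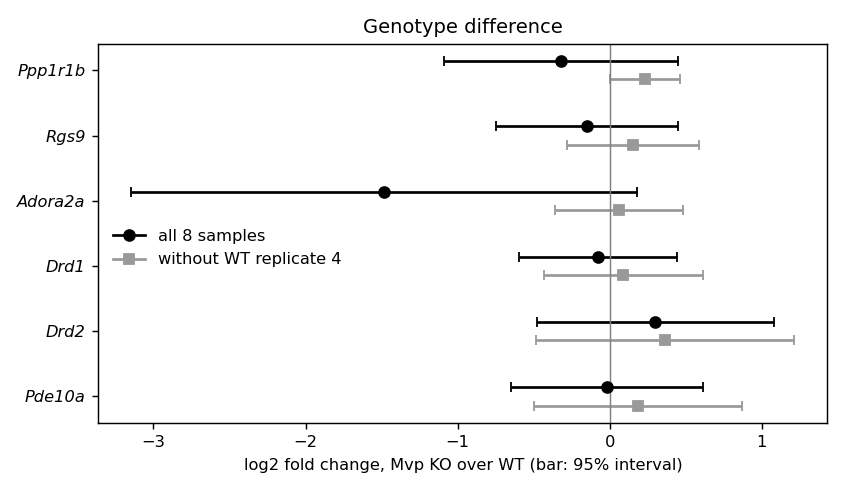
Log2 fold change of Mvp KO over WT (horizontal axis) with its 95% interval for the 6 tested genes, from all 8 samples (black circles) and without WT replicate 4 (grey squares). Every interval includes 0, and *Adora2a* moves from -1.48 to 0.06 when the sample is left out.

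Levels of different genes were compared as CPM per kilobase of exon, over the 8 samples. *Ppp1r1b* was highest at 15.9 ± 7.62 (SD, n = 8), followed by *Pde10a* at 6.88 ± 2.07, *Drd1* at 4.96 ± 1.16, *Rgs9* at 2.03 ± 0.617, *Adora2a* at 1.37 ± 1.87 and *Drd2* at 0.6005 ± 0.197. *Six3* at 0.0186 ± 0.0259 and *Isl1* at 0.0175 ± 0.0142 were far below. Of neighbours in this order, *Ppp1r1b* and *Pde10a* had ranges that did not overlap, as did *Drd2* and *Six3*, and *Drd1* was above *Rgs9* in 8 of 8 samples. *Pde10a* was above *Drd1* in 6 of 8 samples, *Rgs9* above *Adora2a* in 7 of 8, *Adora2a* above *Drd2* in 5 of 8, and *Six3* above *Isl1* in 5 of 8, so over all 8 samples these neighbours did not differ beyond their spread. Without WT replicate 4, *Adora2a* was at 0.706 ± 0.09996 (n = 7), and its range (0.586 to 0.860) then lay wholly below that of *Rgs9* (1.19 to 2.16). *Drd1* (2.85 to 5.60) also lay wholly above *Rgs9* then, and *Isl1* (0.0201) was above *Six3* (0.0180) in the mean. With the length of the longest transcript in place of all exons, the order of the 6 tested genes was the same, but the ranges of *Ppp1r1b* (14.9 to 50.2) and *Pde10a* (7.12 to 16.0) overlapped. With this length *Pde10a* lay wholly above *Drd1* (2.89 to 6.81), so whether these neighbours differed depended on the length used. The ranges without WT replicate 4 were taken per length of all exons only.

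**Figure D3:**
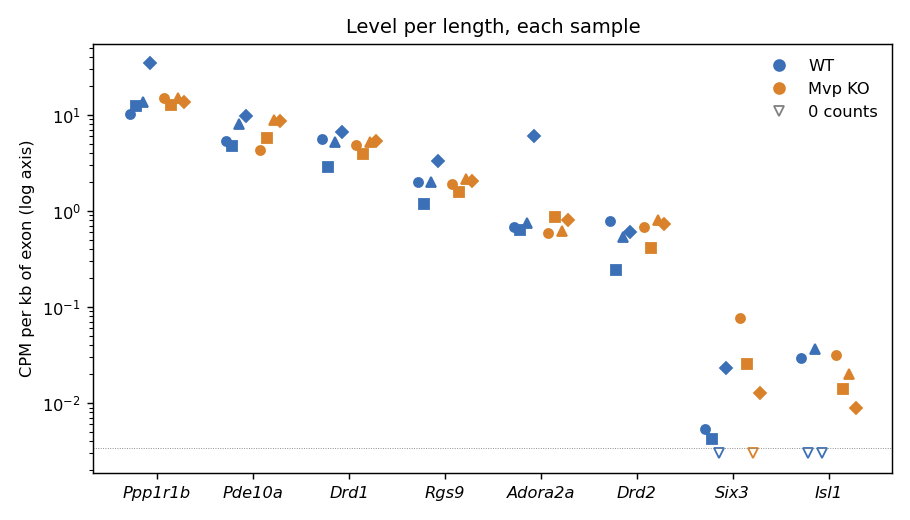
TMM-scaled CPM per kilobase of exon on a log axis for the 8 genes, with 1 point for each WT (blue) and Mvp KO (orange) sample and open triangles for samples with 0 counts. The receptors and signalling genes lie between 0.244 and 34.3, and *Six3* and *Isl1* lie below 0.1 in every sample.

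WT replicate 4 held the highest value of the 8 samples for 5 of the 6 tested genes, all but *Drd2*, and 29.2% of all genes were highest there. It was at least 2-fold above the median of the others for *Ppp1r1b* and *Adora2a*, against 4.19% of all genes. The summed level of the 8 genes was 290 CPM there and 118 to 194 CPM elsewhere. Other genes of striatal projection neurons and of dopamine and adenosine signalling moved in both directions in this sample. Of 18 tested signalling partners 7 were highest and 5 lowest there. Of 11 further genes of striatal projection neurons 6 were highest and 2 lowest. *Gpr6*, an orphan receptor of the indirect pathway, was at 0.412 CPM against 0.855 to 1.40 CPM. *Pdyn*, the dynorphin precursor, was at 58.2 CPM against 25.6 to 39.9 CPM. *Strip2* was at 185 CPM against 34.4 to 42.2 CPM, and the dopamine receptor gene *Drd4* at 10.4 CPM against 0.237 to 0.575 CPM. *Adora2a* and *Gpr6*, both markers of the indirect pathway in the striatum, were respectively at their highest and at their lowest in WT replicate 4. *Gpr6* had only 288 counts over all 8 samples. *Penk*, the peptide gene of that pathway, was at 28.2 CPM in WT replicate 4, inside the 24.6 to 44.1 CPM of the others. *Drd2* (1.52 CPM) stayed inside the range of the others there. *Six3* had 4 counts there, against 0 to 17 in the other samples, and *Isl1* had 0 counts, as it did in WT replicate 2. The source of these levels was not tested.

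Markers of other cell types and of neuronal activity also stood apart in WT replicate 4. The summed level of 10 immediate early genes was 3589 CPM where the other samples had 668 to 1554 CPM, with all 10 at their highest. Summed markers of GABAergic interneurons were at 1978 CPM against 898 to 1101 CPM, but of the 9 genes 5 were highest and 2 lowest there. The summed markers of cortical excitatory neurons, at 6230 CPM, lay inside the range of 4921 to 6277 CPM of the others, with 4 of the 7 highest there, such as *Slc17a7* at 2729 CPM against 1334 to 1677 CPM, and 2 lowest. Summed markers of cholinergic neurons, which include the interneurons of the striatum, were at 2.57 CPM, inside the range of 1.83 to 2.997 CPM of the others, with *Chat*, the enzyme that makes acetylcholine, at 0.317 CPM against 0.184 to 0.342 CPM. Septal markers were lowest there, at 16.6 CPM against 19.7 to 38.5 CPM, as were oligodendrocyte markers, at 1310 CPM against 1512 to 5603 CPM. The part of these differences in the levels of *Adora2a* and *Ppp1r1b* was not tested.

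**Figure D4:**
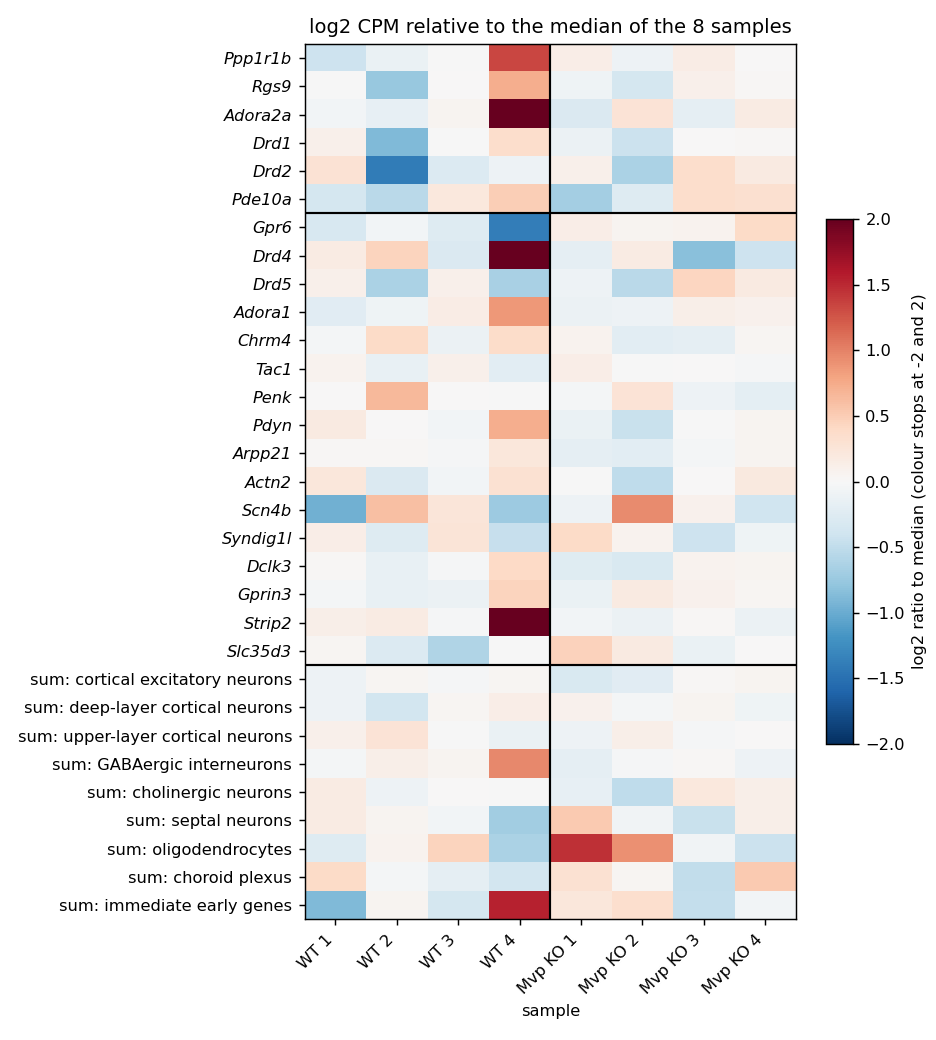
Colour shows the log2 ratio of CPM to the median of the 8 samples (scale from -2 to 2, beyond which the colour no longer changes) for the 6 tested genes, other genes of striatal projection neurons and their receptors, and the summed markers of cell types and activity, with WT samples left of the vertical line. In the column of WT replicate 4, *Adora2a*, *Drd4* and *Strip2* are red while *Gpr6* is blue.

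A second pattern set *Rgs9*, *Drd1* and *Drd2* apart from the other tested genes. For these 3, the replicates numbered 2 were the lowest pair of all 8 samples, which was so for 5.00% of all genes, and the lowest of each genotype was replicate 2 for 8.13% of all genes. The labels do not say that a number marks a shared day or litter. Of 14 tested transcription factors of the striatal lineage, 4 (*Foxp2*, *Bcl11b*, *Sp9* and *Dlx1*) were lowest of each genotype in replicate 2 and 2, *Ebf1* and *Dlx2*, were highest. Among the 4, *Bcl11b*, which deep cortical layers also use, was lowest in WT replicate 2 (55.4 CPM) and in Mvp KO replicate 2 (65.3 CPM) of their genotypes. *Foxp2*, also a deep-layer gene, was likewise lowest of its genotype at 8.95 and 12.7 CPM. In the same samples *Sp9* was at 1.17 and 1.08 CPM and *Dlx1* at 25.0 and 20.4 CPM. The summed deep-layer markers were at 513 CPM in WT replicate 2, the lowest of all samples, and at 646 CPM in Mvp KO replicate 2, where Mvp KO replicate 4 was lower. Of the 10 deep-layer markers 5 were lowest of each genotype in replicate 2, and 1 was highest. Summed upper-layer markers were highest of each genotype in these samples, at 927 and 831 CPM. The rank of this sum rested on *Lamp5* (293 and 288 CPM), without which the sums were 634 and 543 CPM and highest in neither genotype (a sum added after seeing the data). Gene by gene, 3 of the 7 upper-layer markers, *Cux1*, *Lamp5* and *Rasgrf2*, were highest of each genotype in replicate 2, and 0 were lowest. *Drd5*, the other dopamine receptor that raises cyclic AMP, was at 2.49 and 2.66 CPM there and at 2.47 CPM in WT replicate 4, against 3.59 to 5.23 CPM in the others. The part of the layer markers in the lower *Rgs9*, *Drd1* and *Drd2* was not tested.

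Across the 28 pairs of the 8 genes, log2 CPM of *Rgs9* and *Drd1* correlated most closely over the 8 samples (Pearson r = 0.947, exact permutation p = 0.00057, adjusted over the pairs p = 0.0160; Spearman rho = 0.833, exact permutation p = 0.0154, adjusted p = 0.215). Without the 2 samples farthest from the median, WT replicates 2 and 4, r was 0.933, and without WT replicate 4 alone it was 0.984 with an exact permutation p of 0.0574 adjusted over the pairs. This was the 1 pair past an adjusted p of 0.05 by Pearson's r, and by Spearman's rho there were 0. *Drd1* and *Drd2* had an r of 0.844 and a rho of 0.643 (exact permutation p = 0.0150 and 0.0962, adjusted p = 0.210 and 0.529). Their relation rested on both replicates numbered 2, since r was -0.23 without them. The check of *Rgs9* and *Drd1* had left out other samples and kept Mvp KO replicate 2, the lowest of those left for both genes. The r of *Rgs9* and *Drd1* without both replicates numbered 2 was not taken. Without WT replicate 4, r was 0.949 for *Drd1* and *Drd2* and 0.951 for *Rgs9* and *Drd2*. Each had an adjusted exact permutation p of 0.0574, the same as *Rgs9* and *Drd1*. In that setting rho was 0.857 and 0.821, against 0.750 for *Rgs9* and *Drd1*. *Ppp1r1b* and *Adora2a* had an r of 0.914 and a rho of 0.071 (exact permutation p = 0.0858 and 0.882, adjusted p = 0.260 and 0.930). That relation rested on WT replicate 4, without which r was -0.23. *Adora2a* and *Drd2*, which share the indirect pathway in the striatum, had an r of 0.036 and a rho of -0.31 over these cortical samples (exact permutation p = 0.925 and 0.462, adjusted p = 0.979 and 0.754).

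The ratio of *Rgs9* to *Drd1* counts was 0.632, 0.735, 0.683 and 0.876 in WT and 0.695, 0.715, 0.726 and 0.678 in Mvp KO. Without WT replicate 4, the standard deviation of this log2 ratio was 0.074, and counting error alone would give about 0.092 at these counts. It was the smallest of the 15 ratios between tested genes, and this pair was singled out after its values were seen. The ratio of *Drd1* to *Drd2* counts ran from 9.18 to 16.6, and that of *Adora2a* to *Drd2* from 0.924 to 3.15 in all samples but WT replicate 4, where it was 12.1. *Rgs9* and *Drd1* thus kept a nearly fixed ratio in 7 samples while *Adora2a* and *Drd2* did not. Counting error was larger for the ratios to *Drd2*. Without WT replicate 4 the standard deviation of the log2 ratio of *Adora2a* to *Drd2* was 0.684, where counting error alone would give about 0.265. For *Drd1* to *Drd2* it was 0.318 against about 0.216. Part of the wider spread of these ratios is thus counting error.

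**Figure D5:**
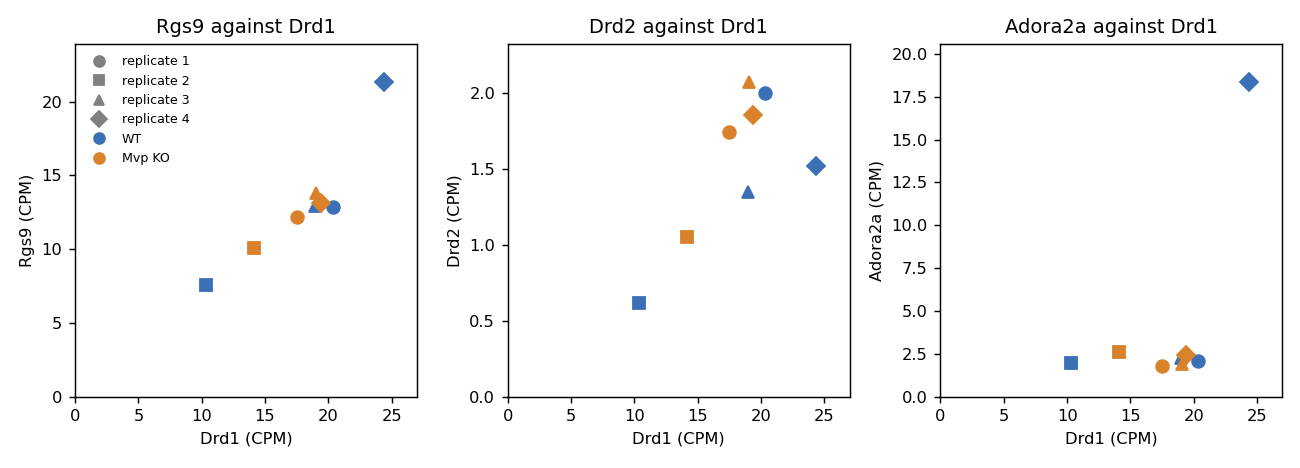
CPM of *Rgs9*, *Drd2* and *Adora2a* (vertical axes) against CPM of *Drd1* (horizontal axes), with 1 point per sample in WT (blue) or Mvp KO (orange) and a symbol for each replicate number. *Rgs9* follows *Drd1* in both genotypes (r = 0.947), while *Adora2a* is flat between 1.79 and 2.63 CPM apart from WT replicate 4 at 18.4 CPM.

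The genes most like each of the 6 in pattern over the 8 samples were found by the root mean square difference of centred log2 CPM among all genes tested. For *Drd1* they were *Rspo2* (0.082) and *Cntnap4* (0.094), with *Rgs9* in place 5 (0.13), and for *Rgs9* they were *Spon1* (0.090) and *Rspo2* (0.11), with *Drd1* in place 4. *Rspo2* encodes a secreted R-spondin, a ligand that strengthens Wnt signals, and ran from 25.8 CPM in WT replicate 2 to 62.3 CPM in WT replicate 4. For *Ppp1r1b* the nearest were *Zyx* (0.11), which encodes the cytoskeletal protein zyxin, and *Chga* (0.13), which encodes the secretory granule protein chromogranin A. For *Adora2a* they were *Sfrp2* (0.18), a secreted Wnt antagonist, and *Mctp2* (0.20), both highest in WT replicate 4 at 8.19 and 12.7 CPM. *Drd2* was nearest to *Gm36251* (0.16) and *Vegfd* (0.18), with *Drd1* in place 18, and *Pde10a* to *Gm36447* (0.16) and *5330416C01Rik* (0.18).

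The wider sets of striatal genes gave no calls either. Of 19 signalling partners of dopamine and adenosine, 18 were tested and 0 passed the adjusted threshold (6 higher and 12 lower in Mvp KO by sign, median log2 fold change -0.03, and -0.03 without WT replicate 4). The largest changes by fitted value were in *Drd4* (log2 fold change -3.05, unadjusted p = 0.0256), *Gpr6* (0.57) and *Drd5* (0.26), and without WT replicate 4 these were -0.41, 0.37 and 0.15. Of 11 further genes of striatal projection neurons 0 of 11 tested passed (4 higher, 7 lower, median -0.12, and -0.03 without WT replicate 4), with *Strip2* at -1.09, *Pdyn* at -0.37 and *Scn4b*, a sodium channel subunit, at 0.30. Without that sample these were -0.16, -0.17 and 0.13. The peptide gene *Tac1* was between 14.2 and 18.0 CPM in all samples and *Penk* between 24.6 and 44.1 CPM. Of 15 transcription factors of the striatal lineage, 14 were tested and 0 passed (7 higher, 7 lower, median 0.0043, and -0.01 without WT replicate 4), with *Foxp2* at 0.37, *Sp8* at -0.30 and *Bcl11b* at 0.22. Over all genes the median log2 fold change was -5.1e-06, and the same edgeR test called *Mvp* alone.

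The lists of cell markers gave 0 calls as well. By sign, all 7 oligodendrocyte markers were higher in Mvp KO (median log2 fold change 0.67), with *Mbp*, a myelin protein gene, at 540 to 1142 CPM in WT and 642 to 2217 CPM in Mvp KO. These overlapped between genotypes and were highest in Mvp KO replicates 1 and 2. All 9 markers of GABAergic interneurons were lower by sign (median -0.28), 2 of them, *Sst* and *Npy*, with an unadjusted p under 0.05, against 0.863% of all genes in this direction. Without WT replicate 4 only *Sst* of these had such a p (log2 fold change -0.26, unadjusted p = 0.0215 by edgeR), the median was -0.08, and the summed levels ran from 898 to 1101 CPM over both genotypes. The medians were -0.11 over 7 markers of cortical excitatory neurons, 0.15 over 10 deep-layer markers, -0.07 over 7 upper-layer markers, 0.19 over 4 septal markers, 0.20 over 4 tested of 6 choroid plexus markers and -0.06 over 10 immediate early genes. Of 5 cholinergic markers 1 was tested (-0.08). Without WT replicate 4 these medians were -0.02, 0.13, -0.10, 0.01, -0.02 and 0.49 in the same order, the cholinergic value was -0.15 and that of the oligodendrocyte markers 0.52, so the immediate early and choroid plexus lists changed sign, and 0 genes of any list passed the adjusted threshold by edgeR.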

How the data were processed

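RNA of 4 WT and 4 Mvp KO samples of mouse cingulate cortex was sequenced by the authors (stranded polyA libraries from 200 ng of RNA, single reads of 50 bases). They trimmed the reads with cutadapt 1.10, removed ribosomal reads with bowtie 2.2.8, aligned to mm10 with STAR 2.5.3a and counted genes of Ensembl release 91 with htseq-count 0.6.1p1; the count mode is not given in the sources used here. The authors deposited raw counts per gene in 1 table, of which all columns were used. Symbols, positions and exon lengths came from GENCODE vM21 (GRCm38), which holds 53274 of 53379 identifiers.

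The members and the 12 further gene lists were chosen with earlier results of these data known. Counts were filtered with edgeR 4.0.16 filterByExpr (minimum count 10, total 15), scaled by TMM and fitted by the quasi-likelihood method with robust dispersions and genotype as the single term; p-values were adjusted by Benjamini-Hochberg over all 16914 genes tested. The fit was tested on simulated data. Correlations used log2 CPM (prior count 2), with 40320 pairings for exact tests. Named genes are the 8 members, *Mvp*, the 2 genes nearest each member, the 3 largest fitted changes with a mean of at least 1 CPM in each signalling, striatal and transcription factor list, and *Tac1*, *Penk*, *Chat*, *Slc17a7* and *Mbp*; 1 item under this rule is not reported here. Alternatives were DESeq2 1.42.0 (Wald test and size factors), limma 3.58.1 voom with sample weights, no filter, the replicate number as a block, a prior count of 0.5, and leaving out each sample. Python 3.11.15 with SciPy 1.17.1 was used for the remainder. No 2 samples of a genotype agreed within counting noise (chi-square per gene 6.93 to 96.3). Depth (28456504 to 42854368 counts) leaves counting error that matters for *Adora2a*, *Drd2*, *Six3* and *Isl1*, which had under 100 counts in most or all samples, and for ratios between genes.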

Additional observations from a re-analysis of the deposited data

Results flagged for a closer look

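Of 48 groups of 4 samples, 7 held a sample whose gap to its nearest neighbour, as a share of the range, exceeded Dixon's critical value. For independent groups chance gives about 1 in 20, or 2.4. These groups share their samples, and *Drd4*, *Strip2* and others were named for their large fold changes. The figure of 2.4 is therefore no fair measure for the 7 flags. Of these, 5 were WT replicate 4: *Ppp1r1b* at 101 CPM (others of the genotype 29.9 to 39.7 CPM), *Adora2a* at 18.4 CPM (1.96 to 2.27), *Slc17a7* at 2729 CPM (1484 to 1598), *Drd4* at 10.4 CPM (0.345 to 0.575) and *Strip2* at 185 CPM (37.0 to 42.2). All 5 were above their group. *Penk* in WT replicate 2 was at 44.1 CPM, while each of the other 3 had 28.2 CPM. The residual *Mvp* level of Mvp KO replicate 3, 2.13 CPM, exceeded the 1.44 to 1.51 CPM of its group.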

How the results depend on the processing

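Over 16 results and 147 alternative values, 124 stayed on the same side of the threshold with the same sign or, for values with no test, moved by less than 1 SD, 13 reversed, 9 moved and 1 became weaker. The count of the 6 tested genes called was 0 in every alternative run. The count of all genes called, 1, was 2 by DESeq2's Wald test, 0 with the replicate number as a block, and from 0 to 1 when 1 sample was left out; the last fits have fewer samples, and for the others the cause was not tested. With voom's sample weights the log2 fold changes of *Ppp1r1b* (0.16), *Rgs9* (0.17), *Drd1* (0.12) and *Pde10a* (0.20) turned positive. Leaving out 1 sample at a time gave log2 fold changes from -0.52 to 0.23 for *Ppp1r1b*, -0.36 to 0.15 for *Rgs9*, -1.80 to 0.063 for *Adora2a*, -0.28 to 0.089 for *Drd1* and -0.17 to 0.19 for *Pde10a*. The higher end came without WT replicate 4 in each of these. *Drd2* stayed positive, from 0.05 to 0.54. *Adora2a* had an unadjusted p under 0.05 by edgeR in 3 of these fits (each keeping WT replicate 4), with adjusted p no lower than 0.846 in any alternative. The difference in summed level ran from -38.2 to 19.3 CPM around -17.2 CPM and the median log2 fold change of the 6 genes from -0.32 to 0.17 around -0.11, both turning positive without WT replicate 4; voom also turned the median positive (0.17). Correlated pairs past the adjusted threshold fell from 1 to 0 without WT replicate 4. In that setting the r of *Rgs9* and *Drd1* was 0.984, against 0.947 over all samples, with an adjusted exact permutation p of 0.0574. The cause was not tested. Samples with the same replicate number had correlated deviations of 0.055, 0.29, -0.0067 and 0.051, so the numbers were not taken as pairs, and the replicate block called 0 of the 6 genes. Depth limits *Six3* and *Isl1*, which were not tested.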
